A study of Mus musculus with 2 samples.

Results

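The 10 genes described here are the immunoglobulin constant-region genes Ighm, Ighd, Ighg2b, Ighg1, Igha, Igkc, Iglc1, Iglc2 and Iglc3, together with Jchain, out of 31053 genes in the deposited tables. They were taken by symbol, and all 10 were listed. Their UMIs (unique molecular identifiers, each counting 1 captured RNA molecule) were followed per barcode in 2 single-cell libraries. Both libraries came from pancreatic cells of C57Bl/6J mice carrying R26[CA]30EYFP, a yellow fluorescent protein reporter, collected after pancreatitis. 1 library held the cells sorted as EYFP positive and the other those sorted as EYFP negative, and the treatment label of both was "None". With 1 library per group there was no replicate and no test, and every interval below is a 95% interval that covers counting error only. How many animals were used, how old they were and when they were sampled is not stated in the sources.

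An antibody is built from a heavy and a light chain, and the constant gene joined to the heavy chain sets its class: Ighm and Ighd for IgM and IgD on naive B cells, and Ighg1, Ighg2b, Ighg2c or Igha after class switching. A mature B cell normally makes either the kappa light chain, from Igkc, or a lambda light chain, from Iglc1, Iglc2 or Iglc3. Plasma cells devote much of their RNA to secreted antibody, and Jchain encodes the joining chain that links antibody units into IgM pentamers and IgA dimers.

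In the GENCODE M21 annotation of the mouse build GRCm38, the heavy-chain genes lay on the minus strand of chromosome 12, Ighm at chr12:113418558-113422730, Ighd at chr12:113406604-113416324, Ighg1 at chr12:113325240-113330523, Ighg2b at chr12:113302965-113307933 and Igha at chr12:113254830-113260236. Igkc lay on the plus strand of chromosome 6 (chr6:70726435-70726966), and the lambda genes on the minus strand of chromosome 16, Iglc1 at chr16:19061618-19062071, Iglc3 at chr16:19065230-19065681 and Iglc2 at chr16:19198396-19200351. Jchain lay outside these loci at chr5:88519809-88527891. The gene identifiers in the deposited tables matched this annotation, but the build the counts were mapped to is not taken as known here.

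Some members are near copies, which bears on how far their counts can be told apart. Iglc2 and Iglc3 differed at 11 of 314 aligned coding bases (96.5% identity), whereas Iglc1 shared 74.8% with Iglc2 and 75.4% with Iglc3. Because the lambda counts below turn on these differences, 90 aligned coding bases from near the 5′ end of each gene are shown from the GENCODE M21 transcripts, with the positions at which the genes are not all alike in capitals (21 positions, 5 of them between Iglc2 and Iglc3).
Iglc1: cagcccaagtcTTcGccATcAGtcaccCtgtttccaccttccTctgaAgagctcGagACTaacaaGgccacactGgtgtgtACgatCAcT
Iglc2: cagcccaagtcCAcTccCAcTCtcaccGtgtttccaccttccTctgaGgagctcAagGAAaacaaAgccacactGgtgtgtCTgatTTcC
Iglc3: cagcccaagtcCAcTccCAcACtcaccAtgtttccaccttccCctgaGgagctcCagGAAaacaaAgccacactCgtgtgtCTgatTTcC

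The 2 IgG genes that led the heavy-chain UMIs of a barcode rich in immunoglobulin, Ighg2b and Ighg2c, shared 85.9% of 1004 aligned coding bases. Their first 90 coding bases are shown for the same reason, with the 7 differing positions in capitals.
Ighg2b: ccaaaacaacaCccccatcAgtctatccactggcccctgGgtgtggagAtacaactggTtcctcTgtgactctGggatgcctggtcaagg
Ighg2c: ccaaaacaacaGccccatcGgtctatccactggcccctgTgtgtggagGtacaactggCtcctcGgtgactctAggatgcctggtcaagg
Reads that the authors' counting could not place on 1 of these genes are not visible in the tables, so the split between Iglc2 and Iglc3 is uncertain.

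The EYFP positive library held 4006807 UMIs in 1717 barcodes and the EYFP negative library 5295816 UMIs in 745. Kept cells, those with 200 or more genes and no more than 20% mitochondrial UMIs, numbered 860 and 553, with medians of 1007.5 and 8020 UMIs. The groups thus differed widely in depth per cell. B-like cells, named from 14 B markers after clustering without immunoglobulin genes, numbered 110 (median 1388 UMIs) and 105 (median 5589 UMIs). Of the 110, 47 lay in the main B-like cluster with the EYFP negative cells (median 4927 UMIs) and 63 in a cluster of EYFP positive cells alone (median 691 UMIs), whose leading genes were Lars2 and Gm42418 ahead of Ebf1 and Fcer2a. T-like cells, which do not make antibody, numbered 82 and 388 and served as the background.

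4 barcodes occurred in both libraries, and 2 of them were plasma-type in both. The EYFP positive copies held 845 to 1058 UMIs and the EYFP negative copies 37662 to 70711. All 142 Ighg2b UMIs of the EYFP positive library lay in these barcodes, 139 of them in 1. Per the labels, each library had a sequencing lane of its own. Whether the copies are the same cells was not tested, and results that rest on them are given with and without them.

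UMIs of the members were concentrated in a handful of plasma-type barcodes, defined as those with at least 20 UMIs of the 9 constant genes making up at least 10% of the barcode's UMIs. The 1 kept EYFP positive plasma-type cell held 74.4% of the 17884 member UMIs in kept cells of its library, and the 2 kept EYFP negative ones held 82.7% of 74324. Without the plasma-type cells, 92.3% of EYFP positive and 86.4% of EYFP negative Igkc UMIs were in B-like cells. The corresponding shares were 95.7% and 95.4% for Ighd, but 76.7% and 65.2% for Ighm, which was also found in T-like cells. Per library, kept cells gave 2797 and 12506 UMIs of Ighm, 374 and 764 of Ighd, 12329 and 46039 of Igkc, and 1287 and 5039 of Jchain (EYFP positive, then EYFP negative). Igha had 2 and 7 UMIs. Ighg1, the constant gene of IgG1, had 0 UMIs in either library, which by a floor of 3 UMIs allows 1.09 CPM (UMIs of the gene scaled to a total of 1000000 UMIs) in the kept EYFP positive and 0.618 CPM in the kept EYFP negative cells. The upper bounds of the exact intervals were 1.34 and 0.759 CPM.

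The 3 kept plasma-type cells were of 2 classes. The EYFP positive cell was an IgM cell with 20929 UMIs, of which constant genes made up 57.4%: Igkc 10107 UMIs, Ighm 1722 and Jchain 1283, with 0 UMIs of Ighd and of Ighg2b. All 12 plasma markers had a UMI in this cell, among them Mzb1, an endoplasmic reticulum protein that aids antibody assembly, and Xbp1, a transcription factor of the secretory program. Its leading variable genes were Ighv11-2 with 81 UMIs and Igkv14-126 with 70. Its barcode was not found in the other library.

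The EYFP negative IgM cell held 44602 UMIs, 67.2% of them from constant genes, with 20407 UMIs of Igkc, 9293 of Ighm and 3273 of Jchain. Ighd stood at 0 here too. Ighm took 20.8% of the cell's UMIs, against 8.23% in the EYFP positive IgM cell, while Igkc took 45.8% and 48.3%. The variable genes differed between the 2 IgM cells, with Ighv3-6 (200 UMIs) and Igkv12-46 (184 UMIs) leading in the EYFP negative cell. 11 of 12 plasma markers had a UMI.

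The remaining EYFP negative plasma-type cell was of the IgG2b class, with 6821 Ighg2b UMIs against 33 of Ighm and 2 of Igha. Its 37662 UMIs were 70.5% constant genes, including 19473 of Igkc, and 1666 UMIs were of Jchain. Jchain was thus present in all 3 cells, at 4.42% of UMIs in the IgG2b cell and 6.13% and 7.34% in the IgM cells. 9 of 12 plasma markers had a UMI. This cell and the EYFP negative IgM cell were both marked as doublets by Scrublet, a caller that marked 2 EYFP positive and 5 EYFP negative cells in all. Markers of T cells gave 0, 0 and 3 UMIs in the 3 cells, and B markers 34, 35 and 37.

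Both EYFP negative plasma-type barcodes recurred in the EYFP positive library, in barcodes that the cell filter removed because they held only 151 and 154 genes. Barcode cactgtccatgtgcta held Igkc 466, Ighg2b 139 and Jchain 32 among 845 UMIs, and its EYFP negative copy is the IgG2b cell. Barcode tccacgtcaggatgac held Igkc 527, Ighm 172 and Jchain 49 among 997 UMIs, and its EYFP negative copy is the IgM cell. The leading kappa variable gene was the same in both copies, Igkv1-122 (2 and 89 UMIs) for the first barcode and Igkv12-46 (2 and 184 UMIs) for the second. The EYFP positive copies amounted to 2.24% of the UMIs of the EYFP negative copies for each barcode. Without shared barcodes, 1 plasma-type cell was left among the EYFP positive cells and 0 among the EYFP negative ones.

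A further EYFP negative barcode carried IgG2c, an IgG class of C57Bl/6 mice. It held 314 Ighg2c UMIs, 131 of Igkc and 16 of Jchain among 2285 UMIs, and was not kept because 27.0% of its UMIs were mitochondrial. Ighg2c is not among the 10 members, so their share in this barcode was 5.91%, but with the other listed constant genes counted it was 19.6%. 8 of 12 plasma markers had a UMI in it, with 8 UMIs of Txndc5 and 5 of Xbp1. The whole EYFP negative library had 378 Ighg2c UMIs, and the EYFP positive library had 1.

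By its constant-gene UMIs, every plasma-type barcode was led by kappa. Igkc made up 97.6% to 99.1% of its light-chain UMIs in the 5 barcodes that met the rule, and 98.5% in the Ighg2c barcode. Lambda UMIs per Igkc UMI were 0.0192 (0.0166 to 0.0221) in the EYFP positive and 0.0128 (0.0117 to 0.0140) in the EYFP negative plasma-type cells. Lambda variable genes were less rare: the EYFP positive cell had 24 UMIs of them beside 70 of kappa variable genes. The EYFP negative IgM cell had 109, of which 104 were Iglv1, beside 190, and the IgG2b cell 2 beside 90. Where these lambda variable UMIs came from was not tested. Kept cells next below the 10% rule held 4.13%, 3.53% and 3.5% constant-gene UMIs, so no kept cell lay close to it.

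**Figure D1:**
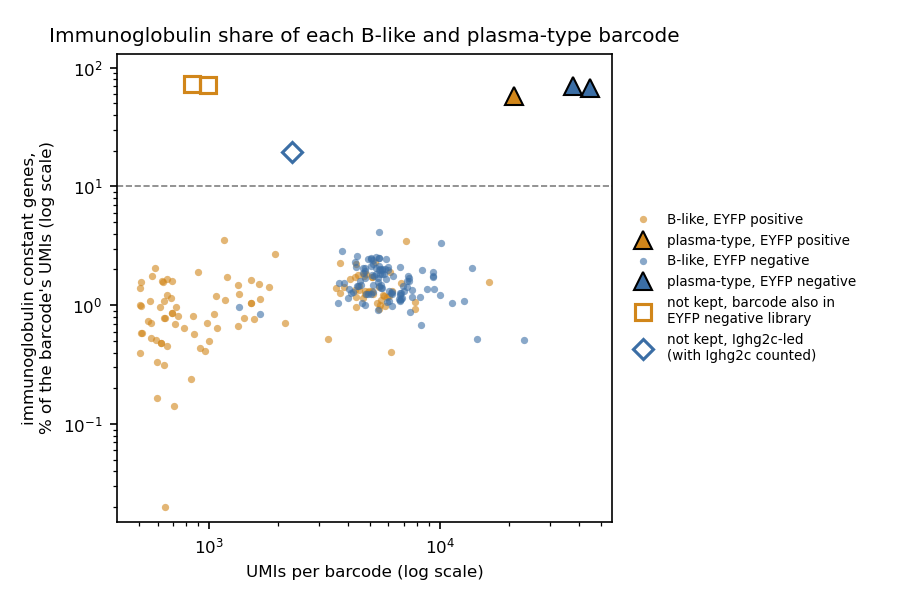
Share of a barcode's UMIs from the 9 constant genes (y, log scale; the 1 cell with 0 is drawn at the foot of its column) against its UMIs (x, log scale), with 1 point per B-like or plasma-type barcode, coloured by library, and the 10% rule as a dashed line; squares and the diamond are barcodes that were not kept. The 3 kept plasma-type cells stood at 57.4% to 70.5%, and the B-like cells at 4.13% or less.

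Plasma markers, taken as a sum, were higher in the plasma-type cells than in B-like or T-like cells. Their summed level was 6546 CPM in the EYFP positive and 4352 CPM in the EYFP negative plasma-type cells, against 606 and 849 CPM in B-like and 200 and 182 CPM in T-like cells. Over the 3 plasma-type cells, Mzb1 had 1483 CPM (285 in B-like cells of both libraries), Txndc5, a disulfide isomerase, 1163 (130), Sec11c, a signal peptidase subunit, 640 (158) and Xbp1 678 (75.1). The plasma cell receptor Tnfrsf17 had 6 UMIs in 2 of the 3 cells and 0 in B-like cells. Cd79a, the signalling partner of surface immunoglobulin, was lower per total UMIs, at 523 CPM in plasma-type and 2818 in B-like cells. Cd79b had 329 and 1608 CPM. Constant genes took 57.4% to 70.5% of the UMIs of each plasma-type cell and 4.13% or less in B-like cells. That share lowers the CPM of every other gene in plasma-type cells. How much of the Cd79a and Cd79b difference it makes up was not tested. Cd81, a coreceptor subunit, differed in the other direction among genes of the B cell receptor complex, at 262 CPM (172 to 381) in plasma-type and 130 CPM (108 to 155) in B-like cells, and is named after its values were seen. Pax5 and Ebf1, transcription factors of B cell identity, had 0 UMIs in the plasma-type cells.

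B-like cells of both libraries expressed IgM and IgD together. In the main cluster Ighm had a UMI in 47 of 47 EYFP positive cells, at 3 to 74 UMIs per cell (median 12), and in 105 of 105 EYFP negative cells, at 1 to 113 (median 18). Ighd ranged from 0 to 18 and from 0 to 19 UMIs, with a median of 6 in each. Both genes were found in 45 of 47 and 101 of 105 cells. In T-like cells, which were deeper, the shares with an Ighd UMI were 4.88% and 5.93%, so the Ighd signal was well above background. In the low-UMI cluster, 35 of 63 cells had an Ighm UMI and 27 of 63 an Ighd UMI.

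Set per total UMIs, Ighm was at 2747 CPM (2563 to 2941) in EYFP positive and 3148 CPM (3014 to 3287) in EYFP negative B-like cells, a ratio of 0.872 (0.804 to 0.946). In the main cluster alone the ratio was 0.927 (0.850 to 1.011), an interval that includes 1. Ighd was at 1192 and 1107 CPM, a ratio of 1.08 (0.946 to 1.22), or 1.16 (1.011 to 1.33) in the main cluster. The number of Ighm UMIs per Ighd UMI in the main cluster was therefore 2.28 (1.99 to 2.61) in EYFP positive and 2.84 (2.61 to 3.1) in EYFP negative cells. The intervals met almost exactly, with bounds of 2.611 and 2.613. In the EYFP negative sum, 113 of the 2074 Ighm UMIs came from 1 cell with 0 of Ighd. The share of Ighd was also taken per cell, over all B-like cells with at least 10 UMIs of the 2 genes. Ighd made up a median of 29.8% in 50 EYFP positive cells and 27.3% in 98 EYFP negative cells. Quartiles were 21.3% and 45.9% in EYFP positive and 20.2% and 37.8% in EYFP negative cells.

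A few cells departed from this pattern by carrying much Ighm with no Ighd. 4 main-cluster cells had at least 10 Ighm UMIs and 0 of Ighd: 2 EYFP positive cells with 21 and 67 Ighm UMIs and 2 EYFP negative cells with 52 and 113. Among all B-like cells, 113 was the highest Ighm count. At the other end, Ighd outnumbered Ighm in 11 of these 50 cells from the EYFP positive library and in 7 of these 98 from the other.

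Almost all B-like cells in which a class could be read were unswitched. Of the cells with at least 3 heavy-chain UMIs, a class was called where 1 class made up at least 80%: all 65 such cells in the EYFP positive library were IgM/IgD (94.5% to 100%), as were 103 of 104 from the EYFP negative library (94.8% to 100%). Another 45 EYFP positive B-like cells and 1 EYFP negative one had too few UMIs. The 0 IgG cells of 65 allow a share of up to 4.62% by the 3-count floor (5.52% by the exact interval), and the 0 of 104 up to 2.88% (3.48%). Ighg2b had 0 UMIs in EYFP positive and 27 in EYFP negative B-like cells, so that it was at least 4.10-fold lower in EYFP positive cells against a floor of 3 UMIs in the group. 19 of the 27 UMIs were in 1 cell. Ighg2b stood at 41.0 CPM (27.0 to 59.6) in EYFP negative B-like cells with that cell and at 12.6 CPM (5.44 to 24.8) without it, beside 11.2 CPM (7.93 to 15.4) in T-like cells of the same library, so that without it no 2-fold bound was left. Jchain had 0 and 13 UMIs (at least 1.98-fold lower), 6 of the 13 in the same cell. Igha had 2 and 4 UMIs, 1 per cell.

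That cell was the only B-like cell of mixed class. It held 23275 UMIs, with Ighg2b 19, Ighm 6, Ighd 0, Igkc 77 and Jchain 6, and 12 of 14 B markers. T markers gave 60 UMIs in it, and Scrublet did not mark it. It also held all 20 UMIs of Rgs13, a regulator of G-protein signalling known from germinal centre B cells, found in B-like cells.

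Cells with B markers, some of them with switched constant genes, were found outside the B-like clusters, in a cluster of 13 cells led by hemoglobin and cell-cycle genes. Of the 446 kept EYFP negative cells outside the B-like and plasma-type groups, 3 had UMIs of at least 7 of the 14 B markers and more B than T marker UMIs, and all 3 lay in this cluster. Of 749 such EYFP positive cells 0 did, but these had a median of 983 UMIs against 8597. The 3 cells were singled out after their immunoglobulin UMIs were seen. They had 12 to 14 of the B markers, 3 to 7 UMIs of erythroid markers and 2 to 6 of T markers, and Scrublet marked none of them.

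The first of the 3, with 15507 UMIs, held 11 UMIs of Ighg2b and 5 of Ighg3 with 0 of Ighm and Ighd. The cell of 18300 UMIs held 35 of Ighm and none of Ighg2b or Ighd. The third, with 68630 UMIs, held 111 of Ighg2b, 27 of Ighm, 11 of Ighg3 and 1 of Ighd, and its barcode, tttcctcgtttccatt, also occurred in the EYFP positive library with 879 UMIs and 3 of Ighg2b. By the same rule as above, 2 of the 3 cells were IgG and 1 was IgM/IgD. Together they held 122 of the 195 Ighg2b UMIs and 68 of the 100 Jchain UMIs found in kept EYFP negative cells other than plasma-type cells. Jchain was at 13, 15 and 40 UMIs in them, whereas it reached at most 6 in any B-like cell. Constant genes made up only 1.63%, 1.20% and 0.625% of their UMIs, far under the plasma-type rule.

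The same 3 cells carried genes of class switching and the germinal centre, the site in lymphoid tissue where B cells mutate and switch their antibody genes. All 10 UMIs of Nuggc, a germinal centre GTPase, in kept cells of either library were in them. S1pr2, a receptor that keeps B cells in the germinal centre, had 2, 4 and 5 UMIs and was at 0 in B-like cells, although these cells held only 11 of its 59 UMIs over both libraries. Of the 12 listed genes, 11, 10 and 9 had a UMI in the 3 cells. These genes were singled out after their values were seen, and no test was made.

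Light chains gave a different picture in B-like than in plasma-type cells. Igkc led in most B-like cells, at 6829 CPM in EYFP positive and 8074 CPM in EYFP negative cells, a ratio of 0.846 (0.803 to 0.890), or 0.893 (0.846 to 0.943) in the main cluster. The median main-cluster cell held 32 and 48 Igkc UMIs, with ranges of 0 to 153 and 0 to 197. Yet lambda UMIs were present in nearly all of the same cells: Igkc and at least 1 lambda gene were found together in 44 of 47 and 104 of 105 main-cluster cells. Lambda UMIs per Igkc UMI were 0.420 (0.387 to 0.455) and 0.422 (0.401 to 0.443) over all B-like cells, intervals that overlapped almost fully and lay far above those of the plasma-type cells.

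Called per cell, with at least 3 light-chain UMIs and 80% for 1 chain, 28 of 99 EYFP positive B-like cells were kappa, 5 lambda and 66 held both. The EYFP negative counts were 31, 6 and 68 of 105. The share holding both, 66.7% (56.5% to 75.8%) and 64.8% (54.8% to 73.8%), depends on the 80% rule, and was 81.8% and 93.3% when 90% was asked for. Over cells with at least 10 light-chain UMIs, lambda made up a median of 26.7% in 55 EYFP positive cells and 27.9% in 104 EYFP negative cells. In T-like cells lambda had 0 and 32 UMIs (9.43 CPM in EYFP negative cells), so that the lambda counts of B-like cells were far over the background.

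Cells led by lambda were few. 2 EYFP positive and 6 EYFP negative cells with at least 10 light-chain UMIs had at least 80% lambda, with 40 to 48 and 30 to 80 lambda UMIs and 0 to 9 and 0 to 11 Igkc UMIs. In 1 EYFP positive cell (Iglc1 29, Iglc2 9, Iglc3 2) and 1 EYFP negative cell (Iglc1 2, Iglc2 35, Iglc3 9) Igkc was at 0. The leading gene was Iglc1 in both EYFP positive cells and in 3 EYFP negative cells, Iglc2 in 2 and Iglc3 in 1. In the cell led by Iglc3 it held 61 of 80 lambda UMIs, against 12 for Iglc2. The 2 cells led by Iglc2 had 35 and 37 UMIs of it, against 9 and 10 of Iglc3. Counts of these near-identical genes thus differed within these cells, but how many UMIs were placed on the wrong gene was not tested.

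In the other main-cluster cells with at least 10 light-chain UMIs, lambda came mostly from Iglc2 and Iglc3. Their lambda UMIs were 10.4% Iglc1, 55% Iglc2 and 34.6% Iglc3 in 43 EYFP positive cells, and 10.8%, 51.3% and 38.0% in 98 EYFP negative cells. A lambda UMI was found in 42 of 43 and 98 of 98 of them, at a median of 15 and 17 UMIs beside 32 and 50 of Igkc. Iglc2 was also the highest lambda gene in each kept plasma-type cell, with 38, 147 and 9 UMIs of Iglc1, Iglc2 and Iglc3 in the EYFP positive cell and 92, 291 and 128 over the EYFP negative cells. Constant-gene counts alone do not say whether these UMIs belong to productive lambda chains.

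**Figure D2:**
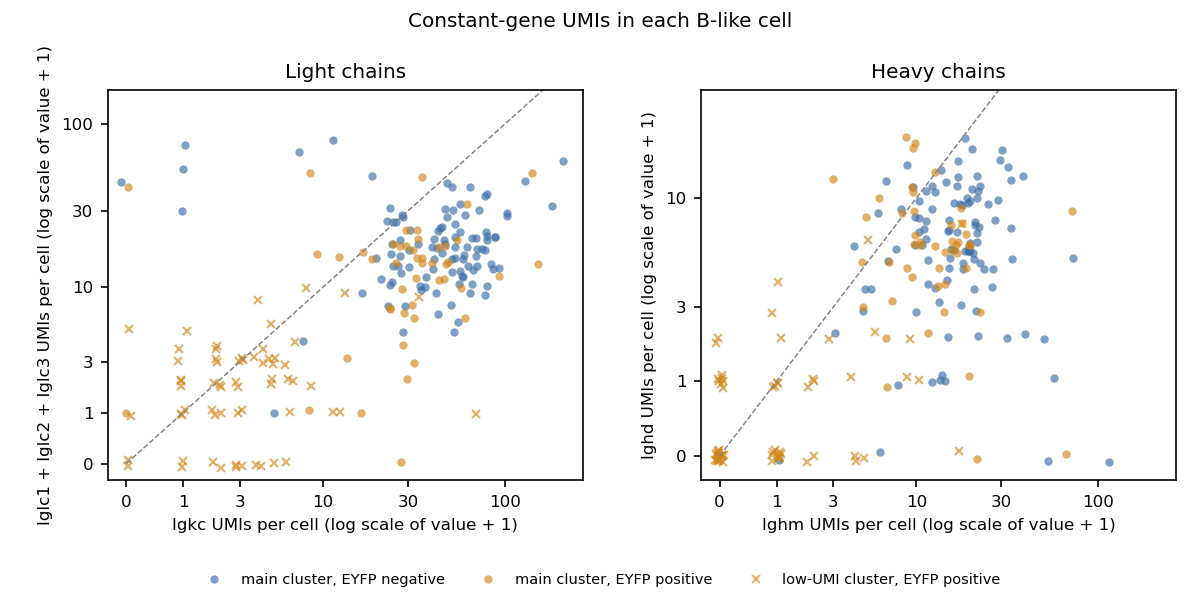
UMIs per B-like cell of Igkc against the sum of Iglc1, Iglc2 and Iglc3 (left) and of Ighm against Ighd (right), on log scales of value + 1 with points slightly shifted so that ties show, and a dashed line where both are equal. Most main-cluster cells have more Igkc than lambda UMIs and more Ighm than Ighd UMIs. The 8 lambda-led cells have 0 to 11 Igkc beside 30 to 80 lambda UMIs. Other main-cluster cells with at least 10 light-chain UMIs go down to 9 (EYFP positive) and 8 (EYFP negative) Igkc UMIs, so Igkc alone does not separate them.

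Between libraries, the members with UMIs in both stood within 2-fold of each other in the clustered B-like cells. Of the 8 members with at least 10 UMIs over both libraries, 0 were at least 2-fold higher and 1 (Ighg2b) at least 2-fold lower in EYFP positive cells, where 4.76% and 10.3% of all 7125 genes with as many UMIs were so, so the members' count was near the background. Their median log2 ratio was -0.22, against -0.11 over all genes, and -0.14 against -0.05 in the main cluster, where again Ighg2b alone of the 8 passed 2-fold (5.72% of 6981 genes higher and 10.2% lower). That call rested on the 1 cell with 19 of the 27 Ighg2b UMIs, without which it was lost. With B-like cells taken from each barcode's marker UMIs instead of clusters (336 cells over both libraries), Ighm stood at a ratio of 0.349, Ighd at 0.428, Igkc at 0.312, Iglc1 at 0.331, Iglc2 at 0.334 and Iglc3 at 0.286, each over 2-fold lower in EYFP positive cells. That rule took 209 EYFP positive cells instead of 110, and 127 EYFP negative cells instead of 105. Ighm fell from 2747 to 770 CPM in the EYFP positive class and from 3148 to 2206 CPM in the other. These ratios therefore compare wider classes that held less immunoglobulin per UMI, more so among EYFP positive cells. In the clustered B-like cells, the lowest ratio of a member found in both libraries was that of Iglc3, at 979 and 1271 CPM, a ratio of 0.770 (0.672 to 0.881). Iglc2 stood at 0.881 (0.786 to 0.985) and Iglc1 at 0.900 (0.731 to 1.1).

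The genes that work with the surface receptor lay in a similar range. Counts per list are set beside all 7125 genes, of which 4.76% were at least 2-fold higher and 10.3% lower. Of 15 B cell receptor complex genes with enough UMIs, 1 was 2-fold higher (Pik3ap1, from 8 UMIs in each library) and 1 lower (the phospholipase Plcg2, 12 and 60 UMIs), with a median log2 ratio of -0.04. Cd79a stood at a ratio of 0.778 (0.713 to 0.848), Cd79b at 0.725 (0.644 to 0.814), the adaptor Bank1 at 0.976 (0.839 to 1.13) and the inhibitory receptor Cd22 at 1.02 (0.795 to 1.30). None of 14 B identity genes passed 2-fold, with Ms4a1 (CD20) at 0.840, Ebf1 at 1.19, Cd37 at 0.964 and Ly6d at 0.774. Among 8 plasma secretory genes none did, at a median of -0.50, with Mzb1 at 0.685 (0.511 to 0.910) and Xbp1 at 0.731 (0.404 to 1.27). In the main cluster 1 of the 8 was 2-fold lower, Ell2 at 0.392 (0.0749 to 1.31) from 3 and 21 UMIs.

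Receptors for immunoglobulin were partly on B-like cells themselves. Fcmr, the receptor for the constant part of IgM, had 573 and 917 CPM, a ratio of 0.625 (0.524 to 0.741), and Fcer2a, the low-affinity IgE receptor CD23, 529 and 531 CPM. Fcgr2b, the inhibitory IgG receptor, had 76.6 and 75.9 CPM. Of the 6 listed receptors with enough UMIs, 1 was 2-fold higher (Pigr, the epithelial transporter of polymeric IgA and IgM, at 7 and 5 UMIs) and 0 lower. Of 7 class-switch and germinal centre genes, 2 were 2-fold lower, Fas with 1 and 9 UMIs and Rgs13 with 0 and 20, all 20 in the cell of mixed class. Of all 7125 genes, 4.76% were 2-fold higher and 10.3% lower. Of 7 genes of B1 and marginal zone B cells, 2 were lower, Cd1d1 with 2 and 19 UMIs and Plac8 at a ratio of 0.484 (0.372 to 0.623). In the main cluster Plac8 stood at 0.565 (0.430 to 0.732), within 2-fold, and Cd1d1 alone was lower. Plcg2, Pik3ap1, Pigr, Fas, Cd1d1 and, in the main cluster, Ell2 are named because they were past 2-fold, after their values were seen. The 6 genes of B cell precursors, among them Rag1, Rag2 and Igll1, had 0 UMIs in B-like cells.

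**Figure D3:**
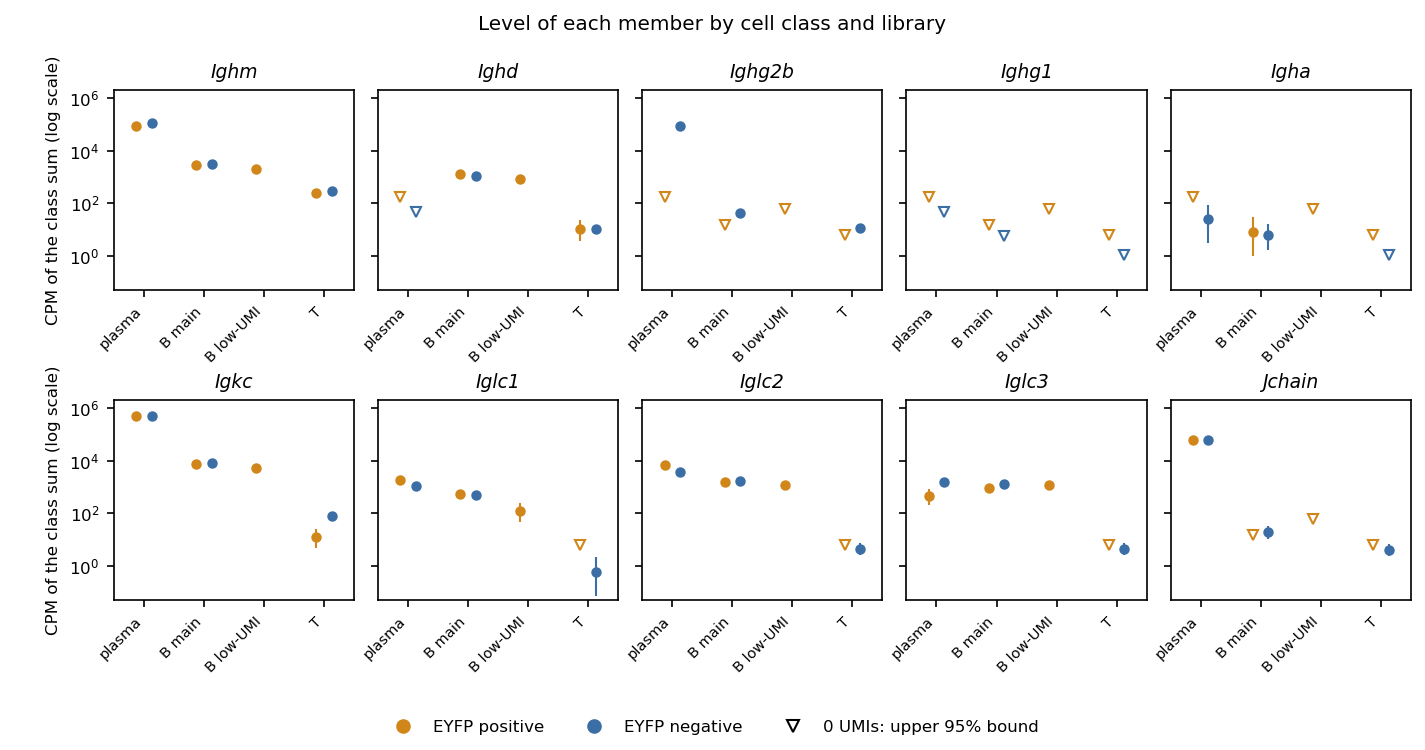
Level of each member in CPM of the summed UMIs of a class (log scale) in plasma-type cells, the main and low-UMI B-like clusters and T-like cells, coloured by library, with 95% counting intervals and open triangles at the upper bound where no UMI was found. Ighm alone stays above 200 CPM in T-like cells, while Ighd, the lambda genes and Jchain lie at 11 CPM or less there.

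Ighm was also present in T-like cells, and not in the proportion in which B-like or plasma-type cells hold it. It had 138 UMIs in 82 EYFP positive T-like cells, 237.5 CPM (200 to 281), and 941 UMIs in 388 EYFP negative ones, 277 CPM (260 to 296). An Ighm UMI was found in 68.3% and 79.4% of these cells (medians of 7286 and 8556.5 UMIs), and in 11.0% and 10.1% with each cell thinned to 500 UMIs, against 55.5% and 80% in B-like cells thinned likewise. Igkc had only 7 and 257 UMIs, 12.05 CPM (4.84 to 24.8) and 75.8 CPM (66.8 to 85.6).

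The ratio of Ighm to Igkc set T-like cells apart from B-like and plasma-type cells. Ighm UMIs per Igkc UMI were 19.7 (9.32 to 49.95) in EYFP positive and 3.66 (3.19 to 4.22) in EYFP negative T-like cells. In B-like cells they were 0.402 (0.371 to 0.436) and 0.390 (0.370 to 0.410), and in plasma-type cells 0.170 and 0.234. The EYFP negative plasma-type value sums the IgM cell, with 9293 Ighm and 20407 Igkc UMIs, and the IgG2b cell, with 33 and 19473. It describes neither cell and does not order plasma-type against B-like cells. In either library the T-like interval lay apart from those of B-like and plasma-type cells. In the 57 EYFP positive and 234 EYFP negative T-like cells without a UMI of any of the 14 B markers, Ighm stood at 258 CPM (210 to 314) and 264 CPM (242 to 288). Igkc stood at 15.3 CPM and 65.9 CPM in the same cells.

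Within the T-like class, the summed Ighm level was highest in the cluster led by Foxp3, Ctla4, Il2ra and Ikzf2, genes known from regulatory T cells. It stood there at 601 CPM (414 to 844) in 8 EYFP positive and 498 CPM (436 to 565) in 60 EYFP negative cells. The largest T-like cluster had 209 CPM (168 to 256) and 239 CPM (217 to 261), and the cluster led by Cd8a and Cd8b1 152 CPM (80.7 to 259) and 247 CPM (217 to 280). In EYFP positive cells 16 of the cluster's 33 UMIs were in 1 cell, and without it the level was 353 CPM (206 to 565), whose interval overlapped that of the largest cluster. Without the EYFP negative cell with the most Ighm, 38 UMIs, it was 424 CPM (367 to 487), still apart from the other clusters. In the 27 EYFP negative cells of this cluster with no B marker UMI it was 397 CPM (314 to 495). The share of cells with an Ighm UMI was not highest in this cluster. Among EYFP negative cells it was 73.3%, against 79.0% in the largest cluster and 84.4% in the cluster led by Cd8a. Among EYFP positive cells it was 62.5%, against 71.9% and 50%.

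Other cells held less Ighm or were too few to read. Macrophage or monocyte-like cells had 194 CPM (140 to 261) and 189 CPM (122 to 278), beside 3 and 6 UMIs of Igkc, with 19 of the 43 EYFP positive Ighm UMIs in 1 cell. In EYFP positive fibroblast-like cells it was at 12.1 CPM from 2 UMIs, and in ductal or metaplastic-like cells at 3.31 CPM, also from 2. The 87 acinar-like EYFP positive cells had 9 UMIs of Ighm and 18 of Igkc. 2 unnamed low-UMI clusters of EYFP positive cells, of 194 cells led by the hormone genes Ppy and Pyy and of 150 cells led by Lars2 and Gm42418, had Igkc at 379 CPM (304 to 468) and 256.5 CPM (180 to 355). The cluster led by Lars2 and Gm42418 held T markers at 4592 CPM and B markers at 203 CPM, but was not counted as T-like. The T-like levels and Ighm to Igkc ratios above therefore do not cover it. Ighg2b was at 11.2 CPM (7.93 to 15.4) in EYFP negative T-like cells and had 0 UMIs in EYFP positive ones, whose library held Ighg2b in shared barcodes alone.

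**Figure D4:**
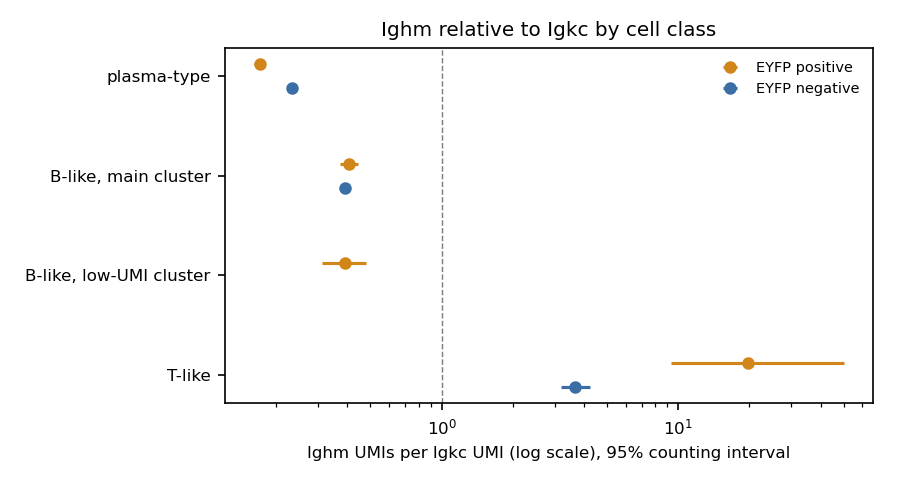
Ighm UMIs per Igkc UMI (x, log scale) in each class and library, with 95% counting intervals, some of them narrower than the point, and a dashed line at 1. T-like cells lie at 3.66 and 19.7, above 1, and the sums of B-like and of plasma-type cells at 0.405 or less. The EYFP negative plasma-type point sums an IgM cell (9293 Ighm and 20407 Igkc UMIs) and an IgG2b cell (33 and 19473), and describes neither cell.

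Genes with the most similar pattern were sought over 16 sums of UMIs, 1 per cell class (or unnamed cluster) and library with at least 10 cells and plasma-type cells apart, as Pearson's r of log2(CPM + 1). The sums share the 2 libraries and their depth, and r is a description. Igkc was followed by Pax5 (r = 0.949), Fcmr (0.938), Blk (0.913) and Cd79a (0.909), all of them B cell genes. The genes nearest to Ighm were H2-Ob (0.948), Slamf1 (0.922), H2-Oa (0.910), Hvcn1 (0.900) and Clec2i (0.899). For Ighd they were Ccr6 (0.918), Cxcr5 (0.915), Cr2 (0.909), Gm31243 (0.886) and Il12a (0.872), the last with 33 UMIs in all. Jchain was followed less closely, by Hist1h2ap (0.832), Neil1 (0.820), Mef2b (0.812), Pclaf (0.791) and Ncapg (0.787), of which Mef2b is a transcription factor of germinal centre B cells and had 36 of its 46 UMIs in kept cells in the 3 B-marker cells described above. These 3 cells also held 68 of the 100 Jchain UMIs in kept EYFP negative cells other than plasma-type cells. Their cluster was led by hemoglobin and cell-cycle genes, so a single sum held most Jchain UMIs.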

How the data were processed

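Raw UMI counts per gene and barcode were deposited by the authors for 2 libraries of mouse cells. Version 1.1 of the 5′ Chromium kit is named by the labels, and the submitters' processing notes name Cell Ranger 2.1.0 and GRCh38, while the file headers give software version 3.1.0 and the gene identifiers are mouse ones. The aligner version, the build and the transcript end read are therefore not taken as known.

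The members and all gene lists were chosen with earlier results of these data known. Barcodes with 200 or more genes and no more than 20% mitochondrial UMIs were clustered with scanpy 1.11.5 (2000 variable genes without immunoglobulin genes, 30 principal components, 15 neighbours, Leiden resolution 1). Clusters were named from listed markers. Doublets were marked with Scrublet and not removed. CPM and ratios were computed from summed counts, with exact Poisson, conditional binomial and Clopper-Pearson intervals (scipy 1.17.1), which cover counting error only, with a floor of 3 UMIs. Genes with at least 10 UMIs in B-like cells of both libraries together gave the background of 2-fold ratios. All members were named, with up to 4 genes per list by UMIs in B-like cells and the 5 most alike genes, except that some are not reported here. With 1 library per group no p-value was computed. The ratio script was tested on simulated data. Sequences came from the GENCODE M21 transcripts (Biopython 1.88). Alternatives covered the cell filter, the total, the B-like class, doublets, depth, calls and single cells.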

Additional observations from a re-analysis of the deposited data

Results flagged for a closer look

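3 barcodes that the cell filter removed held immunoglobulin signal outside the main measurement. The EYFP positive barcode cactgtccatgtgcta held 643 UMIs of the 10 members among its 845, and tccacgtcaggatgac held 761 among its 997. Both barcodes were plasma-type in the EYFP negative library too, with 28217 and 33262 member UMIs. The EYFP positive copies held 151 and 154 genes and 2.28% and 2.29% of the member UMIs of the EYFP negative copies. In the EYFP negative library, 314 Ighg2c UMIs lay in 1 barcode with 27.0% mitochondrial UMIs, beside 131 of Igkc, 16 of Jchain and 0 of Ighm. Whether any of the 3 barcodes was an intact cell was not tested.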

How the results depend on the processing

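Over the alternatives, 155 values of the comparisons stayed within their spread and 38 moved, and of the values for other members and classes 229 stayed and 70 moved; 0 called values changed direction. Leaving acinar, mitochondrial and ribosomal genes out of the total gave ratios of 0.95 for Ighm and 0.921 for Igkc, and T-like Ighm at 421 CPM (EYFP positive) and 485 CPM (EYFP negative) with EYFP negative Igkc at 132 CPM. Taking B-like cells by each barcode's marker UMIs gave ratios of 0.349 for Ighm, 0.428 for Ighd and 0.312 for Igkc, and 34.3 CPM of Igkc in EYFP positive T-like cells. That rule took 209 EYFP positive B-like cells instead of 110, with Ighm at 770 CPM instead of 2747. Adding the 3 B-marker cells of another cluster, chosen after seeing the data, gave 0.979 for Ighm and 1.24 for Ighd. The main cluster alone, also chosen after seeing the data, gave 0.893 for Igkc. Thinned to 500 UMIs, the ratios were 0.723 for Ighm, 0.778 for Ighd and 0.669 for Igkc, both light chains were called in 51.1% of EYFP negative cells, and T-like cells had 0 CPM of Igkc (EYFP positive) and 242 CPM of Ighm (EYFP negative). Thinned to 1000 UMIs, the Ighm ratio was 0.983 and both light chains were called in 52.5% of EYFP positive cells. The IgM/IgD share of EYFP negative cells was 100% under both thinnings, under 500 genes and 10% mitochondrial UMIs, and when clustered with immunoglobulin genes. With 50% for a call, lambda-led EYFP positive cells were 19.2%; cells with both chains were then 0% in either library by construction, since 1 of 2 chains always reaches 50%. With 90%, both chains were called in 81.8% and 93.3%. Plasma-type cells numbered 8 and 38 by at least 4 plasma markers and 20 constant-gene UMIs. Among alternatives chosen after seeing the data, all barcodes without a filter gave 3 EYFP positive plasma-type cells, also with Ighg2c counted, and leaving out shared barcodes gave 0 EYFP negative ones. T-like Ighm in EYFP negative cells was 242 CPM when clustered with immunoglobulin genes and 242 CPM at resolution 0.5. T-like Igkc was 25.7 CPM in EYFP positive cells at resolution 2, and 65.9 CPM in EYFP negative T-like cells without a B marker UMI, chosen after seeing the data. The cause of these shifts was not tested. Resolution 0.5 gave no value for B-like cells, since it left no EYFP negative B-like cluster. Depth limits calls in the EYFP positive low-UMI cluster, where 45 cells had too few heavy-chain UMIs. No paired analysis was possible because each group is 1 library.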
